A study of Arabidopsis thaliana with 16 samples.

Results

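Khib (lysine 2-hydroxyisobutyrylation), a modification of histones by an acyl group, was examined at islands of ChIP-seq signal that lie outside genes on chromosomes 3 and 5 of Arabidopsis thaliana. An island is a stretch of the genome in which reads are enriched. Islands were taken from the table of hda6 and Col-0 and kept when they lay on chromosome 3 or 5 and shared no base, from gene start to gene end, with any of the 32548 genes in the Col-0 gene table. That left 1676 intergenic islands, 860 on chromosome 3 and 816 on chromosome 5, of 5998 islands on these chromosomes and 23250 in the table. The other 4322 islands on the 2 chromosomes overlap a gene. The gene table lists few pseudogenes, so "intergenic" here means outside the listed genes only, and transposon or pseudogene sequence can lie under an island.

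The study compared 4 genotypes of untreated whole seedlings, 12 days old and grown at 22 °C with 16 h of light: the wild type Col-0, sant-null quadruple mutants, an hda6 EMS line and an hda9 T-DNA insertion line. HDA6 and HDA9 are histone deacetylases, and the series title concerns SANT domain-containing proteins and thermotolerance. Each genotype had 2 ChIP and 2 input libraries, 16 samples in 8 groups, but the tables hold 1 value per genotype. No difference below therefore has a replicate check, no test was run, and the 95% intervals cover counting error only. Each mutant is represented by 1 line, and a seedling mixes many cell types, so fewer cells with the mark and less of the mark per cell cannot be told apart. Without input values, the mark and the amount of DNA at a place cannot be told apart either.

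Plant chromosomes carry most of their genes on the arms. The region around each centromere is poor in genes and rich in transposons, satellite repeats and pseudogenes, and in Arabidopsis it is largely silent heterochromatin with methylated DNA. HDA6 is known for its part in silencing transposons, repeats and ribosomal RNA genes there, whereas Khib is mostly known from transcribed genes. Reads from repeated sequence can match several places, so a level in such a region depends on how the reads were placed.

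Positions in the island tables repeat between chromosomes, and this bears on every value below. Of the 1676 intergenic islands, 1609 (96.0%) shared at least 1 bp of their coordinates with an island on another chromosome, against 3759 of 4322 islands on genes (87.0%). Start and end were identical for 277 of them (16.5%). On chromosome 3, 90.9% of the intergenic islands had an island at the same position on chromosome 1, 88.5% on chromosome 2, 75.8% on chromosome 4 and 34.7% on chromosome 5. For those on chromosome 5 the shares were 93.0%, 89.0% and 74.5% on chromosomes 1, 2 and 4, and 37.7% on chromosome 3. Islands of chromosome 1 covered 92.4% of the 200-bp bins of intergenic islands on chromosome 3, but 52.4% of all bins of the gene-poor interval of that chromosome described below.

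Levels of islands with identical ends were correlated with those on chromosomes 1 and 2 but hardly with those on chromosome 4. Their ratios of hda6 to Col-0 were correlated with those on chromosomes 1, 2 and 4. Among 68 intergenic islands of chromosome 3 with identical ends on chromosome 1, the median Col-0 count was 467.5 reads and that of the partners 480.5, and 47 pairs (69.1%) lay within 1.2-fold of each other. Of 77 such pairs between chromosomes 5 and 1, 53 (68.8%) did, with a median ratio of 1.00. With chromosome 2 the shares within 1.2-fold were 65.3% of 75 pairs for chromosome 3 and 58.1% of 86 for chromosome 5, and with chromosome 4 65.7% of 35 and 56.0% of 25. Spearman's rho between the Col-0 levels of a pair, a description across islands of 1 library set, was 0.67 (3 and 1), 0.49 (5 and 1), 0.55 (3 and 2), 0.54 (5 and 2), 0.12 (3 and 4) and -0.055 (5 and 4). For the log2 ratio of hda6 to Col-0 it was 0.74, 0.77, 0.62, 0.66, 0.52 and 0.40 in the same order. Levels here are RPM per kb, the reads of an island per M reads of the authors' library total and per kilobase of the island. Col-0 levels of all intergenic islands lay close together, with quartiles of 13.4 and 17.4. The share of unrelated islands within 1.2-fold of each other was not computed, so the shares above do not show likeness by themselves. For the next comparison the levels of Col-0 and hda6 were averaged. Among the 1609 repeated islands, 323 (20.1%) had the highest such level of all chromosomes at that position. The other 1286 (79.9%) were exceeded elsewhere, most often on chromosome 1 (545) or 4 (439). Over all 1609, including those highest at their position, the median ratio of the highest other level to the island's own was 1.19. For 61 islands the ratio was at least 2. To which chromosome a repeated island belongs cannot be told apart from the tables. The 67 islands with no partner, 40 on chromosome 3 and 27 on chromosome 5, are therefore given separately for the levels and ratios of the mutants. Place on the chromosome and neighbouring genes are given for all intergenic islands together.

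By the chromosome listed for each, intergenic islands were concentrated where genes are few. For repeated islands that chromosome is uncertain, and with it the intervals, distances and neighbours below. Of the 860 on chromosome 3, 79.0%, 78.3%, 38.6% and 36.6% shared a base with gene coordinates of chromosomes 2, 4, 1 and 5. Of the 816 on chromosome 5, 73.9%, 78.6%, 57.1% and 33.8% did so with chromosomes 2, 4, 1 and 3. Bins of 1 Mb with fewer than 150 genes formed 1 interval on each chromosome (TAIR10), 11000001 to 16000000 on chromosome 3 and 10000001 to 14000000 on chromosome 5. These intervals held 1290 of the 1676 intergenic islands (77.0%), but 201 of the 4322 islands on genes (4.65%) and 683 of 13797 genes (4.95%). Of the 1290, 1247 had a partner on another chromosome, and so had 362 of the 386 outside. The densest bin was 13 to 14 Mb of chromosome 3, with 210 intergenic islands and 31 genes, and on chromosome 5 the bin of 12 to 13 Mb held 185 beside 36 genes. Per intergenic Mb there were 163 islands inside the intervals and 26.8 outside, and they covered 21.9% and 2.45% of intergenic bases.

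**Figure D1:**
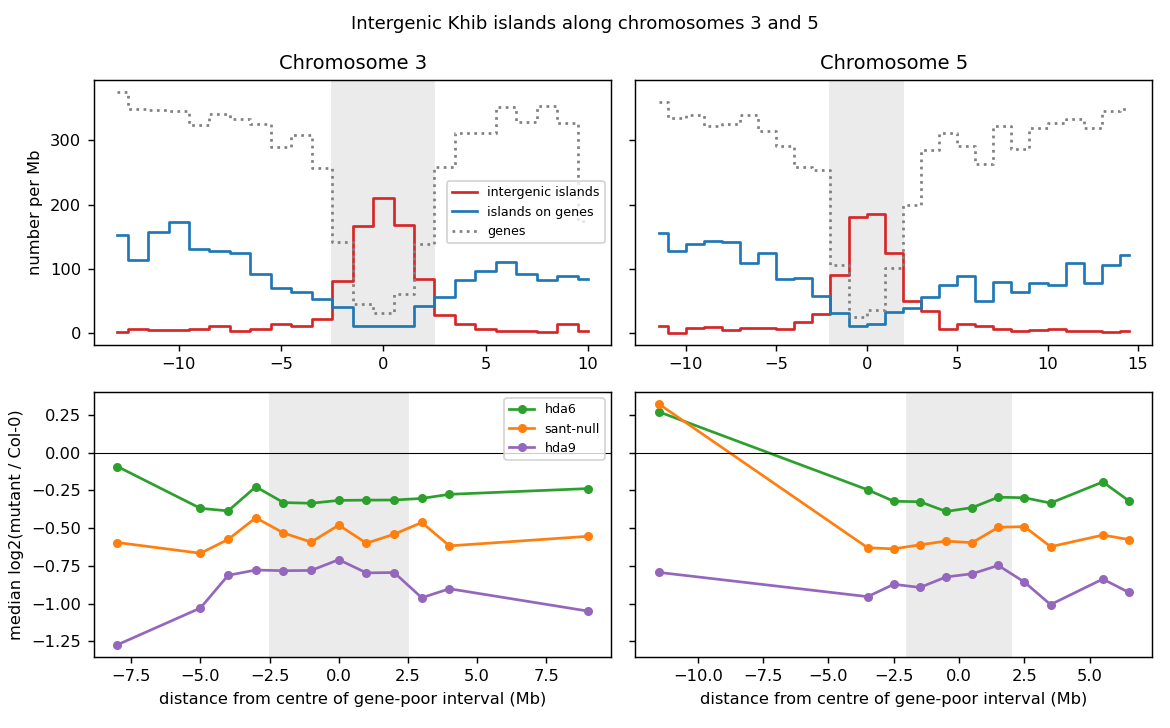
Numbers of intergenic islands (red), islands on genes (blue) and genes (dotted) per Mb along chromosomes 3 and 5, above the median log2 ratio of each mutant to Col-0 in bins holding at least 10 intergenic islands; the x axis is the distance in Mb from the centre of the gene-poor interval (grey). The red line peaks at 210 islands per Mb on chromosome 3 where the gene line falls to 31, and the hda9 line lies lowest in every bin drawn.

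The nearest gene lay a median of 6018 bp away, and up to 181302 bp. Inside the gene-poor intervals the median distance was 9618.5 bp and outside them 1044 bp. Only 265 islands were within 1 kb of a gene, 144 on its 5′ side and 121 on its 3′ side, so neither end was clearly preferred. A further 377 were at least 20 kb away. The flanking genes ran in the same direction around 966 islands, apart from each other around 470 and towards each other around 240.

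The 1676 islands had 626 different nearest genes. Protein-coding genes were the nearest of 1262 islands (75.3%, against 85.5% of all genes on these chromosomes), long noncoding RNA genes of 291 (17.4% against 10.1%) and microRNA genes of 76 (4.53% against 0.913%). The nearest gene was a tRNA gene for 16 islands, a snoRNA gene for 12 and an snRNA gene for 0. No island had as its nearest gene any of the 22 heat shock, 11 histone or 27 ribosomal protein genes found on these chromosomes by symbol. These are only 0.159%, 0.0797% and 0.196% of the 13797 genes there, so their absence is close to those shares and shows no avoidance. Family members without such a symbol were not counted. In the gene order of the TAIR10.1 table, at least 1 pseudogene locus lay between the flanking genes of 1543 islands (92.1%), in 98.3% of cases inside the gene-poor intervals and 71.2% outside. Gap length differs with this: gaps with a pseudogene made up 6.82% of all gaps but 43.8% of their bases, 91.6% inside the intervals and 17.6% outside.

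Intergenic islands had a somewhat higher median length and median level than islands on genes. Their median length was 800 bp (200 to 15800 bp) against 600 bp, 142 were a single 200-bp window long and 52 were at least 5 kb. The median Col-0 level was 15.2 RPM per kb, with the 5th and 95th percentiles at 11.4 and 20.8, against a median of 14.3 for islands on genes. They held 41.7% of the Col-0 reads in islands of the 2 chromosomes. Just outside the gene rule, 78 islands overlapped a gene by fewer than 200 bp and had a median of 15.3 RPM per kb, and just inside it 43 islands with a gap under 200 bp had 14.7.

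All 3 mutants had lower levels than Col-0 at most intergenic islands, least so in hda6 and most in hda9. For 1346 islands listed with identical ends in all 3 tables, the median was 15.4 RPM per kb in Col-0, 12.2 in hda6, 10.2 in sant-null and 8.70 in hda9. Col-0 was the highest of the 4 genotypes at 1272 of them (94.5%) and hda9 the lowest at 1207 (89.7%). The full order, from Col-0 down through hda6 and sant-null to hda9, held at 1027 (76.3%). All 3 tables include Col-0, so asking for identical ends in each can favour islands high in Col-0. These shares are therefore partly set by the choice. Of the 1676 islands, 60 had no island in the hda9 table and 49 none in that of sant-null. The 3 comparisons share the Col-0 value, and each table is scaled to its own library total, which was 35.8 M reads in Col-0, 34.2 in hda6, 25.7 in sant-null and 73.7 in hda9.

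In hda6, the intergenic islands and the islands on genes of the same table had different medians. The log2 ratio (hda6 over Col-0) had a median of -0.32 (quartiles -0.44 and -0.19) at the 1676 intergenic islands, 0.02 at the 4322 on genes and -0.01 over all 23250 islands. At 1.5-fold, 109 intergenic islands (6.504%) were lower and 10 (0.597%) higher, where the background over all islands was 1.1% lower and 1.33% higher. Among islands on genes, 43 were lower and 120 higher. The authors' deposited table called 1295 intergenic islands (77.3%) lower and 67 higher at an FDR under 0.05, against 28.8% lower and 26.9% higher over all islands. Those calls compare 1 count per genotype and take no account of replicates.

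The hda6 difference was seen in both places on the chromosome. Intergenic islands had a median of -0.34 inside the gene-poor intervals and -0.27 outside, and islands on genes had -0.21 inside (201 islands) and 0.03 outside. At matched Col-0 levels of 12 to 15 RPM per kb the medians were -0.28 for intergenic islands and 0.05 for islands on genes, and at 15 to 20 RPM per kb -0.37 and -0.11. At 20 to 30 RPM per kb they were -0.37 and -0.13, close to those at 15 to 20. The Col-0 level is also the denominator of the ratio. The 67 islands without a partner had a median of -0.34, with 11 lower and 2 higher at 1.5-fold.

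In sant-null, 1627 of the intergenic islands had an island in its table, 1403 with identical ends. Their median log2 ratio was -0.56 (quartiles -0.74 and -0.37), that of islands on genes of the 2 chromosomes -0.32 and that of all islands of the table -0.15. At 1.5-fold, 756 (46.5%) were lower and 5 (0.307%) higher, beside 11.6% lower and 3.0% higher over all islands and 19.9% lower on genes. Recentred on the islands of the 2 chromosomes, 6.39% were lower and 1.91% higher. The authors' deposited table called 89.7% of them lower and 2.40% higher, where it called 53.3% and 21.1% of all islands. Inside and outside the gene-poor intervals the medians were alike, -0.56 and -0.55. Islands on genes had -0.53 inside the intervals (183 islands) and -0.31 outside, so on genes the lower ratios were inside the intervals. The 66 islands without a partner had a median of -0.65, with 39 lower and 0 higher.

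In hda9, intergenic islands and islands on genes of chromosomes 3 and 5 had nearly the same ratios. Of 1616 intergenic islands with an island in that table, 1296 (80.2%) were at least 1.5-fold lower and 0 higher, against 32.4% lower and 3.82% higher over all islands. Recentred in the same way, 1.24% were lower and 2.35% higher. The median log2 ratio was -0.81 (quartiles -0.98 and -0.64), but islands on genes had -0.79 with 2700 of 3599 lower, and all islands of the table -0.36. The authors' deposited table called 98.5% of the intergenic islands lower and 0.557% higher, against 68.7% and 20.2% of all islands. Inside the gene-poor intervals the median was -0.79 and outside -0.92. All 65 islands without a partner that had an island in that table lay below Col-0, with a median of -0.88 and 57 lower at 1.5-fold.

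**Figure D2:**
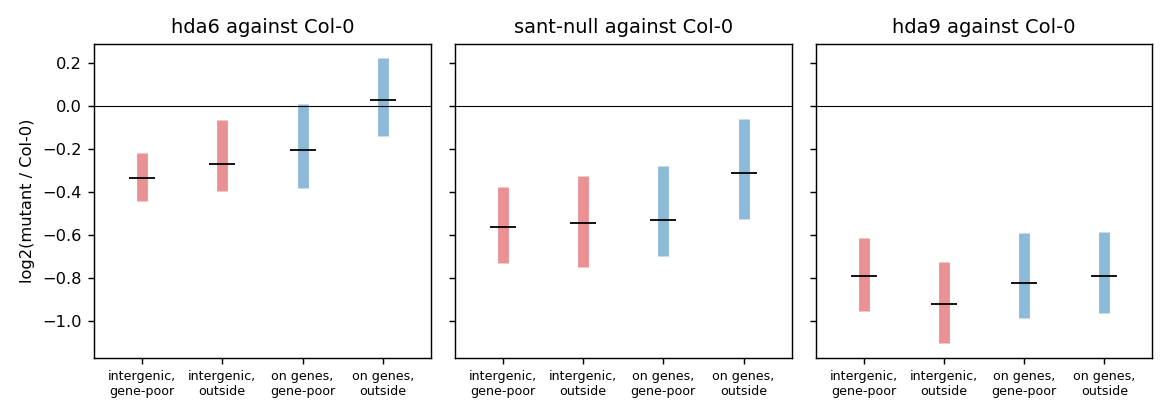
Median (line) and quartiles (bar) of the log2 ratio of each mutant to Col-0 for intergenic islands (red) and islands on genes (blue), inside and outside the gene-poor intervals of chromosomes 3 and 5. In hda6 the medians run from -0.34 for intergenic islands inside the intervals to 0.03 for islands on genes outside, and in hda9 all 4 lie between -0.79 and -0.92.

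How far each mutant lies below Col-0 depends on the scaling. The median ratio of all islands on chromosomes 3 and 5 was -0.07 in hda6, -0.39 in sant-null and -0.80 in hda9. Relative to it, the intergenic islands had medians of -0.25, -0.17 and -0.01, so after recentring a difference between intergenic islands and the rest is visible in hda6 and sant-null and almost absent in hda9. The share at least 1.5-fold lower in hda6 was 3.52% after recentring. Scaled to the totals of the gene tables, 2.80% were lower in hda6 and 25.1% in sant-null. The genes nearest to the intergenic islands were measured on another scale, RPKM (reads per kb of gene and M reads), with 1 RPKM added before the log2 ratio. The 494 nearest genes of at least 500 bp had medians of 0.08 in hda6, 0.20 in sant-null and 0.39 in hda9, against 0.20, 0.28 and 0.46 over 27266 genes of that length. Those inside the gene-poor intervals (222) had -0.11, 0.10 and 0.22, and those outside (272) 0.18, 0.31 and 0.53.

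Islands with no partner on another chromosome that were found in all 3 tables had the same order of genotypes in their medians. The 2 left out had no hda9 island and are the 2 at least 1.5-fold higher in hda6, so the choice favours this order. In the 65 of them found in all 3 tables, the median was 14.5 RPM per kb in Col-0 (10.4 to 21.1), 11.1 in hda6 (7.78 to 20.5), 9.40 in sant-null (6.33 to 16.4) and 7.87 in hda9 (5.26 to 10.9). The ranges overlap between all genotypes, and hda9 had the narrowest. These islands were short, with a median of 400 bp, and none reached 30 RPM per kb in Col-0.

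**Figure D3:**
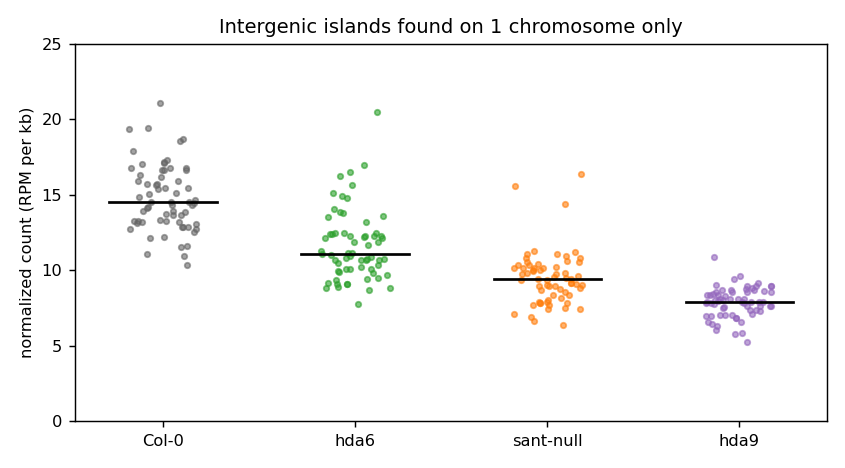
Level in RPM per kb of each of the 65 intergenic islands without a partner on another chromosome that were found in all 3 tables, by genotype; points are islands, the line is their median, and sideways scatter only separates points. Medians step down from 14.5 in Col-0 through 11.1 in hda6 and 9.40 in sant-null to 7.87 in hda9.

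The highest of these islands in Col-0 lay on chromosome 3, 22236801 to 22237000, 3154 bp from the noncoding RNA gene AT3G60176. It had 21.1 RPM per kb in Col-0, 16.95 in hda6, 10.5 in sant-null and 8.96 in hda9. The fold was 0.804 (0.626 to 1.03) in hda6, 0.499 (0.359 to 0.685) in sant-null and 0.425 (0.334 to 0.540) in hda9, so the hda6 interval includes 1 and the others lie below it. The island at 14790201 to 14790400 of chromosome 3, which is 773 bp upstream of the long noncoding RNA gene AT3G06465, had 19.4, 11.1, 7.79 and 8.55 RPM per kb in the same order. It had the lowest fold of the partnerless islands in both hda6 (0.572, 0.427 to 0.762) and sant-null (0.401, 0.275 to 0.574). An island less than 1 kb away, 14789201 to 14789600, had 13.8, 15.1, 10.8 and 8.55 RPM per kb, with hda6 slightly above Col-0 (fold 1.10, 0.900 to 1.34).

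On chromosome 5, the island at 23749001 to 23749400 near AT5G58800 had 19.3 RPM per kb in Col-0, 13.5 in hda6, 9.74 in sant-null and 7.81 in hda9. The island at 13314201 to 13314400 near AT5G35050 had 18.7, 14.8, 10.1 and 6.99 in that order. Both step down from Col-0 to hda9 without a tie. Upstream of CPL2, a gene for a phosphatase of the C-terminal domain of RNA polymerase II, the island at 112801 to 113000 departed from this order, with 17.9 in Col-0, 20.5 in hda6, 16.4 in sant-null and 8.96 in hda9. Its hda6 and sant-null intervals include 1 (folds 1.14, 0.894 to 1.47, and 0.915, 0.687 to 1.21), and its hda9 fold was 0.501 (0.390 to 0.644).

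Others of the 8 highest fell from Col-0 through hda6 and sant-null to hda9. The island at 14555601 to 14555800 of chromosome 3 had 18.6, 12.1, 10.5 and 8.96 RPM per kb in Col-0, hda6, sant-null and hda9. The one at 13198201 to 13198400, 20767 bp from the nearest gene AT3G32260, had 17.3, 10.96, 8.77 and 7.60. Directly beside the 3′ end of UMAMIT45, a gene of a family of amino acid transporters, the island at 10461001 to 10461200 had 17.2, 13.9, 10.1 and 6.86. In each of the 3 the hda9 value was the lowest and the Col-0 value the highest.

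A few islands without a partner were low in sant-null and hda9 but not in hda6. Upstream of HEXO1, a gene for a beta-hexosaminidase that trims sugars of glycoproteins, the island at 20487201 to 20487400 of chromosome 3 had 16.8 RPM per kb in Col-0, 16.5 in hda6, 7.79 in sant-null and 5.84 in hda9. The hda9 fold, 0.348 (0.261 to 0.463), was the lowest of the partnerless islands, and the hda6 fold was 0.985 (0.755 to 1.28). Beyond the 3′ end of ILL3, a gene of the family of auxin-conjugate hydrolases, the island at 21969001 to 21969200 of chromosome 5 had 16.2, 15.6, 8.96 and 6.04 in the same order. The island at 20787801 to 20788200 of chromosome 5, near AT5G51150, was low in all mutants, with 15.4, 10.1, 6.92 and 5.74. So was that at 10959001 to 10959200 of chromosome 5, near AT5G04925, with 16.6, 9.94, 7.40 and 8.42.

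Only 2 islands without a partner were at least 1.5-fold higher in hda6. An island low in Col-0 may be listed only because hda6 is high, so such folds are partly fixed by the listing. At 24887001 to 24887200 of chromosome 5, 1395 bp upstream of AT5G61970, the level was 12.7 RPM per kb in Col-0, 21.9 in hda6 and 18.5 in sant-null, with no island in the hda9 table. Its fold was 1.72 (1.32 to 2.26) in hda6 and 1.46 (1.08 to 1.96) in sant-null, the highest of these islands in both. The other, at 22575601 to 22575800 of chromosome 3 and 290 bp upstream of AT3G61010, had 11.5 in Col-0 and 17.7 in hda6, a fold of 1.54 (1.16 to 2.07), and no island in the sant-null or hda9 tables. Next to GATA5, which encodes a zinc-finger transcription factor, the island at 26499001 to 26499200 of chromosome 5 had 16.8, 14.9, 15.6 and 9.44 in Col-0, hda6, sant-null and hda9. In hda9 the highest fold of these islands was still below 1, at 0.867 (0.746 to 1.01) for chromosome 3, 12329401 to 12330000, with 12.5, 12.5, 10.9 and 10.9 in the same order.

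Among islands without a partner, the longest and the farthest from a gene that are given here were also highest in Col-0. The longest island without a partner, 15111401 to 15113000 on chromosome 3, had 12.7 RPM per kb in Col-0, 9.86 in hda6, 9.13 in sant-null and 8.04 in hda9. Near FRA1, a gene for a kinesin that bears on cell wall deposition, the island at 19362601 to 19363800 of chromosome 5 had 12.9, 10.7, 9.03 and 8.37. The farthest from any gene among those without a partner, at 13804201 to 13804800 of chromosome 3 and 93450 bp from AT3G06315, had 12.7, 10.7, 9.35 and 8.64. At 12003801 to 12004200 of chromosome 5, 61113 bp from the microRNA gene MIR854e, the values were 13.8, 8.69, 7.69 and 7.50. Col-0 was the highest genotype in all 4.

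A small set of 17 intergenic islands reached 30 RPM per kb in Col-0. All of them had a partner on another chromosome. Their median log2 ratio was -0.37 in hda6, 0.05 in sant-null and -0.39 in hda9, with 1, 11 and 7 of the 17 above Col-0. Of the 7 in hda9, 6 are neighbours in the single run on chromosome 5 described below, so they are not separate cases. Some kept the order of the medians: the island at 15714601 to 15717800 of chromosome 3 had 36.2 RPM per kb in Col-0, 27.99 in hda6, 23.6 in sant-null and 16.4 in hda9. The highest, at 11184201 to 11189000 of chromosome 5 and 1413 bp from AT5G29560, had 110 RPM per kb in Col-0, 106 in hda6, 115 in sant-null and 58.6 in hda9, so it lay well below Col-0 in hda9 alone. The island at 13588801 to 13600400 of chromosome 3 had 103, 81.1, 108 and 104 in that order, and lay well below Col-0 in hda6 alone.

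Some partners of these islands were high too, and others were not. The island of 105 RPM per kb at 11730401 of chromosome 5 had partners of 86.3 on chromosome 1 and 63.7 on chromosome 2. Its partner on chromosome 3 had 19.9, and chromosome 4 had none. At the position of the 110 RPM per kb island, the highest Col-0 level was 102 on chromosome 1, 87.3 on chromosome 2, 35.4 on chromosome 3 and 26.6 on chromosome 4. At the position of the chromosome 3 island of 103 RPM per kb, the partners reached 91.0 on chromosome 1, 92.1 on chromosome 2, 66.5 on chromosome 4 and 53.2 on chromosome 5. An island near CCB3, a gene for an assembly factor of the cytochrome b6f complex, lay at 14200601 to 14205200 of chromosome 5 with 42.2 RPM per kb, and the chromosome 3 island over the same coordinates, which covers the ribosomal RNA genes AT3G41768 and AT3G41979, had 164. In that last case the intergenic island was the lowest of the 5 chromosomes.

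**Figure D4:**
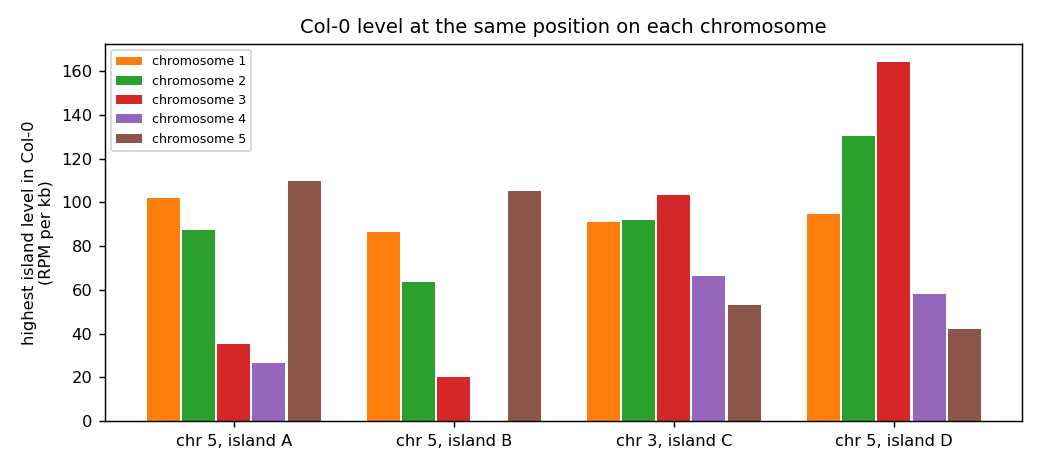
Highest Col-0 island level (RPM per kb) on each chromosome at the positions of 4 high intergenic islands: A, chromosome 5 from 11184201; B, chromosome 5 from 11730401; C, chromosome 3 from 13588801; D, chromosome 5 from 14200601. A missing bar means no island there. At A the chromosome 5 bar of 110 stands beside 102 on chromosome 1, and at D the chromosome 5 bar of 42.2 is the lowest.

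A run of 11 intergenic islands on chromosome 5, 11701201 to 11739800, was singled out after its values were seen. It spans 38.6 kb, its islands cover 25 kb, and the nearest genes are the microRNA genes MIR854d and MIR5643b, at 11119 to 32139 bp. The miR854 family is known for copies within retrotransposons. Its islands ranged from 12.5 to 105 RPM per kb in Col-0 (median 46.0), and all 11 had a partner on another chromosome. The median log2 ratio was -0.47 in hda6 (-0.57 to -0.15), -0.02 in sant-null (-0.77 to 0.28) and 0.26 in hda9 (-0.94 to 0.53). In the hda9 table a single island covers those at 11717401 and 11718601, so its ratio is counted for both.

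Within the run, the high and the low islands behaved differently in hda9. The island at 11701201 to 11705800 had 46.0 RPM per kb in Col-0, 33.5 in hda6, 52.0 in sant-null and 66.5 in hda9, and its hda9 fold of 1.45 (1.41 to 1.48) was the highest of all intergenic islands. The one at 11730401 to 11734000 had 105, 77.5, 108 and 126 in that order. Both were lowest in hda6 and highest in hda9. By contrast, the low island at 11719801 to 11721600 had 12.5, 9.03, 7.32 and 6.49, falling from Col-0 to hda9. On chromosome 1, an island over 11726001 to 11736400 had 86.3 RPM per kb and a log2 ratio of -0.47 in hda6, beside -0.44 at 11730401 on chromosome 5.

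**Figure D5:**
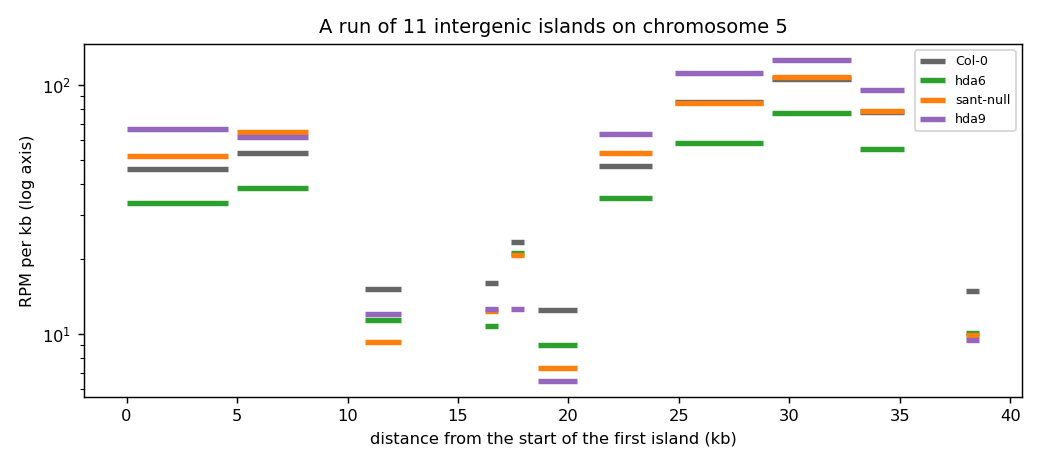
Level (RPM per kb, log axis) of the 11 intergenic islands of the chromosome 5 run in the 4 genotypes, against the distance in kb from the start of the first. Each bar is as long as the island in the hda6 table. The hda9 levels at 11706201, 11712001, 11717401 and 11718601 are those of overlapping hda9 islands with other ends, the same island for 11717401 and 11718601. Around 30 kb the hda9 bar reaches 126 and the hda6 bar 77.5, while in the low island near 19 kb hda9 is lowest at 6.49.

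Among repeated islands, the largest folds above 1 in hda6 and sant-null were at low Col-0 levels. The Col-0 level is the denominator of the fold, and an island low in Col-0 may be listed only because the mutant is high. The pattern is thus partly fixed by the choice and supports nothing. At 14183801 to 14184600 of chromosome 3, Col-0 had 7.05 RPM per kb and hda6 12.4, a fold of 1.76 (1.48 to 2.11), and the overlapping island of the sant-null table gave 1.91 (1.53 to 2.39), the highest for sant-null. Near GRF4, which encodes a growth-regulating transcription factor, the island at 19620401 to 19620600 of chromosome 3 had 8.38 in Col-0 and 16.7 in hda6, a fold of 1.99 (1.44 to 2.77), the highest for hda6. Neither had an island in the hda9 table. The lowest ratio in hda6, picked after values were seen, was at 14748001 to 14748400 of chromosome 3, with 17.5 in Col-0, 8.55 in hda6, 6.82 in sant-null and 6.69 in hda9. Here all 3 mutants lay far below Col-0, with folds of 0.490 (0.390 to 0.612), 0.391 (0.295 to 0.511) and 0.383 (0.316 to 0.464).

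The first Mb of chromosome 5 was the only bin with at least 10 intergenic islands in which the hda6 and sant-null medians were above Col-0. Its 11 islands had median log2 ratios of 0.27 in hda6, 0.32 in sant-null and -0.79 in hda9, and a median Col-0 level of 12.7 RPM per kb. The bin holds the CPL2 island described above. In all other bins of that size the 3 medians were below 0.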

How the data were processed

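Deposited tables of Khib ChIP-seq were the only data used. Per the labels, chromatin was fixed with 1% formaldehyde for 15 min. Per the submitters' processing notes, the build was TAIR10 and the tools named, without their roles, were bedtools, SICER 1.0.3, Bowtie2 2.2.5 and CASAVA. The sources used here do not state how replicates were combined, how reads matching several places were treated, or the use of input reads.

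The 3 island tables hold read counts of a mutant and Col-0 as the authors deposited them. Per the file headers, the authors deposited normalized counts, which here equal RPM, reads per M reads of a library total. The authors deposited a fold (ratio) and an FDR-adjusted p-value per direction. The authors deposited RPKM values per gene in 4 tables, from which whole reads were recovered within 0.01 reads for at least 99.98% of values, at depths in M reads of 18.6 for Col-0, 12.0 for sant-null, 16.75 for hda6 and 38.8 for hda9.

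Ratios were computed from the normalized counts with no pseudocount and no filter, with 95% conditional exact (Clopper-Pearson) intervals from the counts. These cover counting error only, and reads need not be separate molecules. Islands of the sant-null and hda9 tables were matched by at least 1 bp. With 1 value per genotype the planned fit across libraries could not be made. Steps were tested on simulated data. Python 3.11.15, numpy 2.4.6, pandas 2.3.3, scipy 1.17.1 and matplotlib 3.10.9 were used. Unmapped columns numbered 0. Gene names and order came from a RefSeq table of TAIR10.1, whose coordinates were not used, and all 32548 loci were found.

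Named islands were, among those without a partner on another chromosome, the 8 highest in Col-0, the 4 highest and 4 lowest folds per mutant with at least 50 reads in either genotype, the 3 longest and the 3 farthest from a gene, and among repeated islands the 3 highest and the highest fold per mutant. The text gives those that differ most in pattern. The gene-poor intervals, the 17 islands of 30 RPM per kb or more, the CCB3 island, the 1.2-fold limit for pairs and the level bins were chosen after values were seen. The islands and gene lists were chosen with earlier results of these data known. Alternatives concern the gap to a gene, repeated positions, chromosome, scaling, pseudocount, read minimum and thresholds.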

Additional observations from a re-analysis of the deposited data

How the results depend on the processing

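No paired analysis was possible because the tables hold 1 value per genotype and no replicate numbers, and leaving out each replicate was not run for the same reason. Of the values that answer a comparison, 164 kept under the alternatives and 67 moved. A median kept when it lay within an interval around the main median, and a share or count when it lay within 1.5-fold of the main value. Of those for single named islands, 368 kept to within their counting interval and 137 moved. A further 8, all at least 1.5-fold from Col-0 before the change, changed sign. Smaller ratios that changed sign are counted as kept or moved. No median changed sign. The alternatives by place on the chromosome, by own level and without islands of 30 RPM per kb were chosen after seeing the data. Depth limits single 200-bp islands most, with 60 Col-0 reads at the lowest. The cause of each move was not tested.

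The number of intergenic islands was 67 without repeats at 1 bp and 85 at 50%, and the share repeated was 16.5% for identical ends. Without repeats at 1 bp, medians were -0.65 (sant-null), -0.34 (hda6) and -0.88 (hda9), and at 50% -0.64 (sant-null) and -0.85 (hda9). At 1 bp, 0% were 1.5-fold higher in sant-null and 2.99% in hda6, and 16.4% lower in hda6. At 50% these were 0%, 2.35% and 12.9%. The authors' deposited table then called 1.52% (sant-null) and 0% (hda9) higher at 1 bp, and 1.205%, 2.35% (hda6) and 0% at 50%. Chromosome 3 alone gave medians of -0.31 (hda6) and -0.79 (hda9) and 0.241% called higher in hda9 in the authors' deposited table. Chromosome 5 alone gave -0.83 and 0.892% in hda9.

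Recentred, medians were -0.17 (sant-null), -0.25 (hda6) and -0.011 (hda9), with 1.91% higher in sant-null and 2.35% in hda9, and 6.39%, 3.52% and 1.24% lower in the 3 mutants. Gene-table totals gave -0.41, -0.24 and -0.83, with 0.676% higher in sant-null and 25.1% (sant-null) and 2.80% (hda6) lower. A pseudocount of 1 RPM gave -0.50, -0.30 and -0.71, with 0.184% (sant-null) and 0.298% (hda6) higher and 2.39% lower in hda6. At 2-fold, 0% were higher in sant-null and hda6, and 5.41%, 0.0597% and 22.6% lower in sant-null, hda6 and hda9. With the FDR threshold set to 0.001, 1.48% (sant-null) and 2.09% (hda6) were called higher in the authors' deposited table.

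The gene-poor intervals alone gave medians of -0.34 (hda6) and -0.79 (hda9), with 0.233% higher in hda6 and 2.64% called higher in the authors' deposited table. Outside them, medians were -0.27 and -0.92, 0.557% (sant-null) and 1.81% (hda6) were higher, and the authors' deposited table called 3.62%, 8.55% and 0.284% (hda9) higher. Islands highest at their position gave -0.68, -0.36 and -0.96, and 1.03% higher in hda6. Without islands of 30 RPM per kb or more, 0.188% were called higher in hda9 in the authors' deposited table.

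The 8 sign changes among ratios at least 1.5-fold from Col-0 all came from recentring in hda9. They were 0.11 at 14789201, 0.14 at 15111401, 0.090 at 14345601, 0.045 at 11184601 and 0.13 at 13704801 of chromosome 3, and 0.18 at 19362601, 0.15 at 11739201 and 0.061 at 14200601 of chromosome 5. Smaller ratios also changed sign, and not in hda9 alone. In sant-null, recentring took the log2 ratio from -0.13 to 0.27 at 112801 of chromosome 5 and from -0.20 to 0.19 at 12329401 of chromosome 3.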

Other observations

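Some islands outside genes on chromosomes 3 and 5 in the sant-null or hda9 table overlap no island of the hda6 table's intergenic set. Being listed in the mutant's table and not in that set favours islands that are high in the mutant, so ratios above Col-0 are partly fixed by the choice and support nothing. The sant-null table held 25 of them, all repeated on another chromosome, with a median log2 ratio of 0.39, 4 at least 1.5-fold higher and 0 lower. The highest was chromosome 5, 19505401 to 19505800, with 173 reads in sant-null and 11 in Col-0, a fold of 21.9 (12.0 to 44.8). The next was chromosome 3, 9992001 to 9992400, with 147 reads in sant-null and 107 in Col-0, a fold of 1.92 (1.48 to 2.48). In the hda9 table there were 20, also all repeated, with a median of 0.25, 2 higher and 4 lower. Islands at 5279401 to 5279800 and 13795401 to 13795800 of chromosome 3 had folds of 1.61 (1.31 to 1.99) and 1.60 (1.32 to 1.96) in hda9. The lowest fold in both tables was at chromosome 5, 4320001 to 4323400, at 0.675 (0.626 to 0.727) in sant-null and 0.521 (0.491 to 0.552) in hda9.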
